A study of Homo sapiens with 8 samples.

Results

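The transcripts described here are 4 stathmins (STMN1, STMN2, STMN3 and STMN4) and 6 tubulin isotypes (TUBA1A, TUBB2A, TUBB2B, TUBB3, TUBB4B and TUBB6). They are 10 of the 62086 genes in the count table, taken by symbol, and they were picked with the response of these libraries to antibody already known. All 10 passed the filter on low counts, as did 20165 genes in the whole series. RNA was sequenced from BG01, 1 established line of human embryonic stem cells (hESCs) grown in mTeSR medium with antibiotics. The cells received 5 µg/mL anti-M8nAb, an antibody that neutralises the secreted glycoprotein MFG-E8, or 5 µg/mL normal mouse IgG as the isotype control, and were collected after 12 or 24 h. The study asked what loss of MFG-E8 activity does to hESCs in culture. Each of the 4 groups (IgG 12 h, anti-M8nAb 12 h, IgG 24 h and anti-M8nAb 24 h) has 2 libraries, called libraries 1 and 2 after their replicate numbers.

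Microtubules are polymers of alpha and beta tubulin dimers. Each is encoded by several isotype genes whose proteins differ mostly in their acidic C-terminal tails, where microtubule-associated proteins bind and where enzymes add or remove glutamate chains. Stathmins bind soluble tubulin dimers and favour the disassembly of microtubules. STMN1 is found in most dividing cells, whereas STMN2, STMN3 and STMN4 are known mainly from neurons, as are TUBB3 and TUBB2B; TUBB4B, TUBB6 and TUBB2A are expressed more widely.

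The coding ends of the 5 beta tubulins are shown first because the tails they encode are where isotypes differ most and where glutamate chains are added. Each sequence holds the last 54 coding bases and the stop codon, 5′ to 3′ on the coding strand, read from GRCh38 (hg38), and the capitals mark the glutamate codons GAA and GAG. TUBB, the most abundant beta isotype in these cells, is added for comparison.
TUBB2A: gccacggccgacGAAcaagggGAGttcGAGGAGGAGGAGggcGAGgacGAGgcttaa
TUBB2B: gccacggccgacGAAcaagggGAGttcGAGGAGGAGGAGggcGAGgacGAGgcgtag
TUBB3: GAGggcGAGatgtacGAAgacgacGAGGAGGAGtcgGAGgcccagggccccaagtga
TUBB4B: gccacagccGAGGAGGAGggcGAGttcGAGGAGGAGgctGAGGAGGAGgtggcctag
TUBB6: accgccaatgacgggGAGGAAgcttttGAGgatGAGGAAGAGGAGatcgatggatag
TUBB: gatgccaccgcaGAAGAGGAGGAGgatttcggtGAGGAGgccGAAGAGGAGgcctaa

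These ends lie at chr6:3153863-3153919 (minus strand) for TUBB2A, chr6:3224751-3224807 (minus) for TUBB2B, chr16:89935748-89935804 (plus) for TUBB3, chr9:137243500-137243556 (plus) for TUBB4B, chr18:12326074-12326130 (plus) for TUBB6 and chr6:30724341-30724397 (plus) for TUBB. TUBB4B had the most glutamate codons of these members, 10 of 18, and TUBB3 and TUBB6 the fewest, 7 of 18. The ends of TUBB2A and TUBB2B differed at 2 bases only, in the last codon (gct and gcg, both alanine) and in the stop codon. The stretches shown thus encode the same amino acids for this pair.

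The likeness of TUBB2A and TUBB2B limits how their reads can be told apart. Their coding sequences, 1338 bases each, are 98.1% identical, with 25 differing bases, of which 23 are at the third base of a codon, and the longest identical stretch runs for 725 bases. Of all 100-base windows along the transcripts of TUBB2A, 26.3% also occur in TUBB2B, and 19.1% of the TUBB2B windows occur in TUBB2A. The stathmins share no such window with another gene, and for TUBA1A, TUBB2A, TUBB2B, TUBB3, TUBB4B and TUBB6 the windows found in no other gene were 88.2, 72.7, 77.3, 81.6, 96.6 and 86.2%. TUBB3 has a limit of another kind. On its canonical transcript 92.8% of the bases lie on exons of an overlapping gene on the same strand (ENSG00000198211), which is listed at 0 counts in every library, so the counts given to TUBB3 may leave out reads from that stretch. On the other strand, 10.8% of the TUBA1A exon bases overlap TUBA1C and 21.2% of those of TUBB6 overlap AFG3L2.

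The 8 libraries held between 21010400 and 21792716 counts over genes. The markers of hESCs fixed for this report, 12 in number, were present in every library. They summed to 8206 to 8369 CPM (counts scaled to a common library size by the trimmed mean of M values, TMM) with IgG and 9212 to 9311 CPM with anti-M8nAb at 12 h, and to 7355 to 7393 and 7726 to 7980 CPM at 24 h. By edgeR 8 of them rose and 0 fell at 12 h (2 falls at an unadjusted p under 0.05, 0 by DESeq2 and 1 by limma), and 3 rose and 3 fell at 24 h. Of all genes tested, 15.8% rose and 16.4% fell at 12 h, and 21.2% rose and 21.3% fell at 24 h. The 8 rises came to 4 without IgG 12 h library 1 and in both limma fits. The part of these markers in the results below was not tested. POU5F1, the core pluripotency factor, was at 1309 to 1570 CPM. Replicates are labelled as biological, with no word on whether they were separate cultures, so the p-values below measure the spread between these libraries, which may be technical. In such bulk RNA, a rise or fall of a transcript in all cells cannot be told apart from a change in how many cells of a kind were present.

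With IgG at 12 h, TUBA1A had the highest level per length of the members, 183 FPKM (fragments scaled by gene length and library size) in both libraries. TUBB4B followed at 163 and 170 FPKM, then TUBB2B (89.8 and 87.2), STMN1 (53.5 and 53.5) and TUBB6 (45.4 and 45.7). STMN3 (28.4 and 29 FPKM) and TUBB2A (28.4 and 27.7) met at the same value and could not be ordered. The lowest were TUBB3 (2.34 and 2.45 FPKM), STMN2 (0.778 and 0.863) and STMN4 (0 and 0.014). With IgG at 24 h the libraries of TUBA1A and TUBB4B overlapped, as did those of TUBB3 and STMN2, and TUBB2A (31.5 and 38.6 FPKM) stood above STMN3 (23.7 and 29.6). After 24 h of anti-M8nAb, TUBB2B (159 and 164 FPKM) stood above TUBB4B (125 and 120), and STMN4 (3.09 and 3.84) stood above STMN2 (1.91 and 1.96) and TUBB3 (1.51 and 1.44). These are levels per length, and the countable part of each gene differs as described above, so the ranks of TUBB3 and TUBB2A are insecure. Ranks also depend on the length used, that of STMN1 among them. All exons of STMN1 come to 6247 bases and its canonical transcript to 1443. For TUBB4B the lengths are 2037 and 1563, and for TUBB2B 4160 and 1922. In CPM with IgG at 12 h, STMN1 (330 and 331) lay within the range of TUBB4B (328 and 343).

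**Figure D1:**
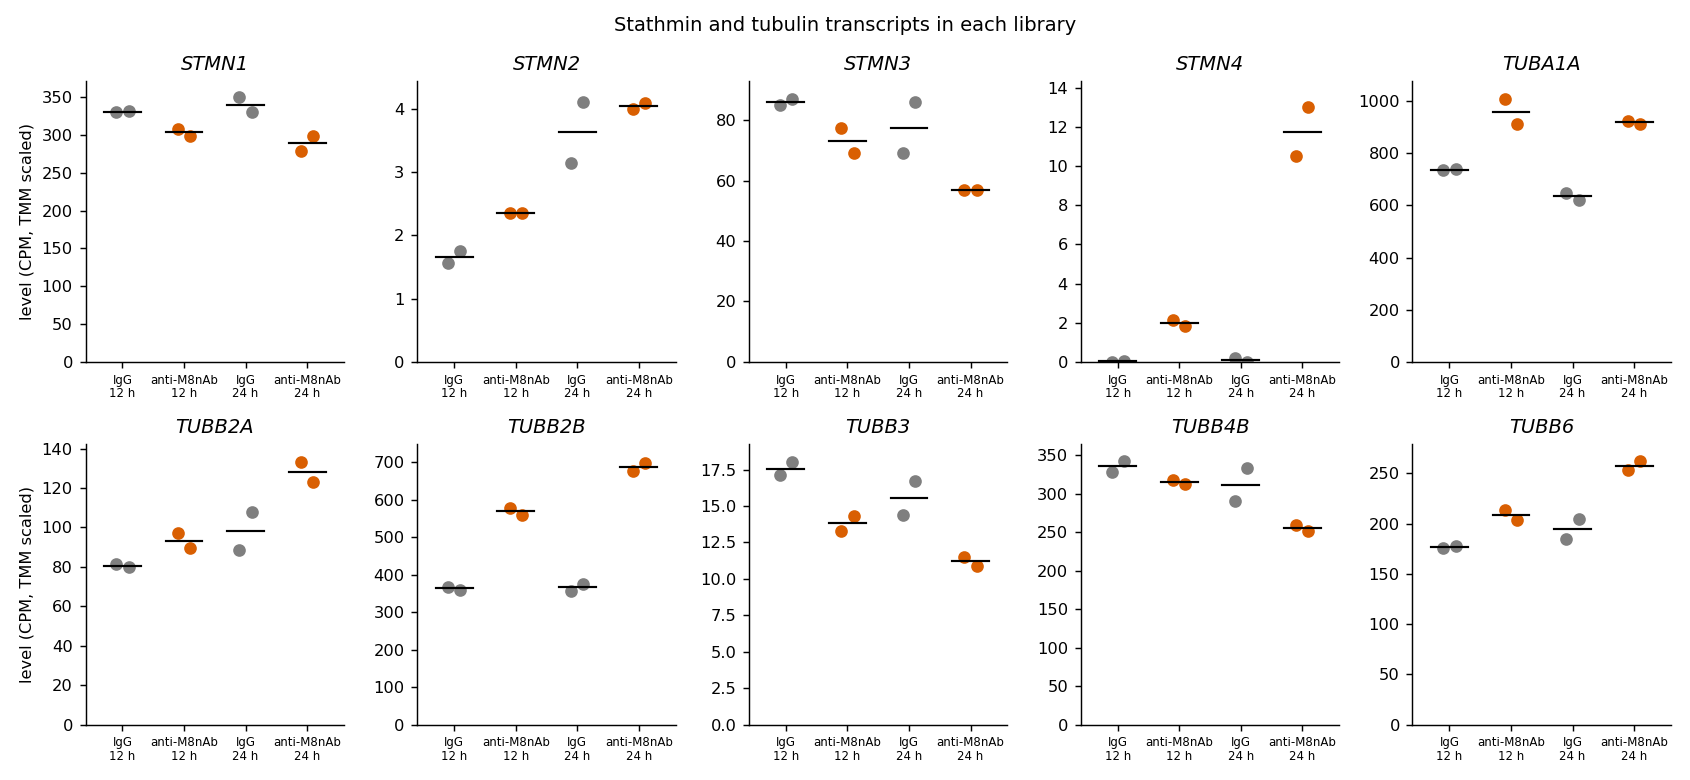
Level of each stathmin and tubulin transcript (y axis, CPM scaled by TMM, starting at 0, with its own range in each panel) in the 2 libraries of each group (x axis; grey points IgG, orange points anti-M8nAb; black line, mean). STMN4 was at 0.178 CPM or less in the 4 IgG libraries and at 1.83 to 13 CPM with anti-M8nAb, and TUBB2B reached 676 and 697 CPM at 24 h against 356 and 376 CPM with IgG.

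Among the stathmins, the values of STMN4 (ENSG00000015592, chromosome 8, 27235308 to 27258420, minus strand) parted the treatments most. At 12 h it had 0 and 1 counts in the IgG libraries, against 44 and 38 in those given anti-M8nAb. The counts after 24 h were 4 and 0 with IgG and 215 and 267 with antibody. The IgG libraries were thus at or close to 0 at both times, and the antibody libraries were higher at 24 h than at 12 h. In CPM the antibody libraries were at 2.16 and 1.83 at 12 h and at 10.5 and 13 at 24 h. The ratio per counted read was 83.1 at 12 h (95% exact interval 14.5 to 3322, from 82 counts against 1) and 125 at 24 h (48.4 to 460, from 482 counts against 4). These intervals cover counting error only, and reads from amplified libraries are not independent molecules. Even at 24 h, STMN4 made up only 5.01% ± 0.563 (SD, n = 2) of the summed stathmin FPKM.

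STMN1 (ENSG00000117632, chromosome 1), the stathmin of dividing cells and the most abundant member of the family here, was lower with anti-M8nAb. It was at 330 and 331 CPM with IgG and at 308 and 299 CPM with anti-M8nAb at 12 h, and at 350 and 330 against 279 and 299 CPM at 24 h. Neither time showed overlap between treatments, and the log2 fold changes were -0.12 (SE 0.05) and -0.23 (SE 0.05). STMN3 (ENSG00000197457, chromosome 20) was lower as well, with 85 and 87 CPM for IgG and 77.3 and 69 CPM for anti-M8nAb at 12 h. At 24 h its levels were 69.2 and 85.9 CPM with IgG and 56.9 and 57 CPM with anti-M8nAb. The log2 fold changes of STMN3 were -0.23 (SE 0.08) and -0.45 (SE 0.08). The IgG library 1 at 24 h lay inside the range of the 12 h antibody libraries, so the STMN3 level of control cells varied by more than the difference at 12 h.

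STMN2 (ENSG00000104435, chromosome 8), a neuronal stathmin linked to axon growth, was scarce in all libraries, with 34 to 93 counts. Its levels were 1.57 and 1.75 CPM with IgG and 2.36 and 2.36 CPM with anti-M8nAb at 12 h. At 24 h they were 3.15 and 4.1 CPM with IgG and 3.99 and 4.09 CPM with anti-M8nAb, so the treatments were apart at 12 h and overlapped at 24 h. The log2 fold changes were 0.51 (SE 0.29) and 0.16 (SE 0.24), and the second fell to -0.03 when IgG 24 h library 1 was left out. The sum of the 4 stathmins, in FPKM, was 83.1 ± 0.42 with IgG and 72.3 ± 2.42 with anti-M8nAb at 12 h, while 24 h gave 85 ± 2.43 and 69 ± 2.8 (SD, n = 2), so the family as a whole was lower with antibody while STMN4 was higher.

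Markers of neural cells were read beside these neuronal stathmins. The marker counts below are to be read against all genes tested. Of these, 15.8% rose and 16.4% fell at 12 h, and 21.2% rose and 21.3% fell at 24 h. The 14 neuron markers summed to 248 to 250 CPM with IgG and 227 to 239 CPM with anti-M8nAb at 12 h, and to 235 to 258 and 277 CPM at 24 h. Of the 13 tested, 1 rose and 4 fell at 12 h, and 7 rose and 3 fell at 24 h, and ELAVL4 was at 0 in every library. The 4 falls came to 1 without IgG 12 h library 2 and to 2 without anti-M8nAb 12 h library 1, and the 7 rises to 4 without either anti-M8nAb 24 h library. DCX, the neuroblast microtubule protein doublecortin, fell at both times (log2 fold change -0.83, adjusted p = 0.0367, and -1.42, adjusted p = 0.00147, edgeR), and MAP2, a dendritic microtubule protein, rose (0.34, adjusted p = 0.00283, and 0.68, adjusted p = 4.84e-08). The 10 neural progenitor markers summed to 293 to 299 CPM with IgG and 414 to 425 CPM with anti-M8nAb at 12 h, and to 267 to 269 and 450 to 466 CPM at 24 h, with NEUROG1 at 0 in every library. Of the 5 tested, 5 rose and 0 fell at 12 h, and 2 rose and 0 fell at 24 h. The 5 became 3 by DESeq2 and with no filter on low counts, and 2 and 3 in the limma fits. They were also fewer without IgG 12 h library 1 or anti-M8nAb 12 h library 1. PAX6, SOX1 and POU3F2 were scarce at 12 h, with 17 and 27, 2 and 8, and 11 and 20 IgG counts. With anti-M8nAb they had 53 and 65, 25 and 16, and 30 and 43. Most of the summed level came from FABP7 and NES. At 12 h FABP7 was at 113 and 115 CPM with IgG and 206 and 215 CPM with anti-M8nAb. NES was at 178 and 181 and at 213 and 192 CPM. The 2 rises at 24 h were those of FABP7 and NES. The untested markers of the list did not pass the filter on low counts. SOX1 was at 2.09 (SE 0.65, adjusted p = 0.0114, edgeR) at 12 h and at -1.72 (SE 0.74, adjusted p = 0.0577) at 24 h. Its difference between the times was -3.81 (adjusted p = 0.00661). The 8 mesenchymal markers summed to 488 to 490 and 552 to 585 CPM at 12 h and to 559 to 572 and 684 to 714 CPM at 24 h, and 2 of the 6 tested rose at each time. The part of these markers in the stathmin and tubulin values was not tested.

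Of the 6 member tubulins, TUBB2B (ENSG00000137285, chromosome 6, 3223324 to 3231730, minus strand), a beta isotype of the developing nervous system, stood farthest from IgG. Its levels were 368 and 360 CPM with IgG and 578 and 560 CPM with anti-M8nAb at 12 h. At 24 h they were 356 and 376 CPM with IgG and 676 and 697 CPM with anti-M8nAb. All antibody libraries were above all IgG libraries, with log2 fold changes of 0.64 (SE 0.05) at 12 h and 0.91 (SE 0.05) at 24 h, a difference between the times of 0.26 (SE 0.07). TUBB2A (ENSG00000137267), its neighbour on chromosome 6, moved less, from 81.5 and 79.7 CPM with IgG to 97.1 and 89.6 CPM with anti-M8nAb at 12 h, and from 88.3 and 108 to 133 and 123 CPM at 24 h. Its log2 fold changes were 0.21 (SE 0.07) and 0.38 (SE 0.07), so the near-identical pair did not move by the same amount.

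TUBA1A (ENSG00000167552, chromosome 12), the main alpha isotype of postmitotic neurons, was at 735 and 739 CPM with IgG and at 1006 and 913 CPM with anti-M8nAb at 12 h. The values at 24 h were 647 and 621 CPM against 923 and 913 CPM. The treatments did not overlap, and the log2 fold changes were 0.38 (SE 0.05) and 0.53 (SE 0.05). TUBB6 (ENSG00000176014, chromosome 18), a divergent beta isotype found in many tissues, was at 176 and 178 CPM with IgG and 214 and 204 CPM with anti-M8nAb at 12 h, and at 185 and 205 against 253 and 262 CPM at 24 h. Its antibody libraries were higher at each time, by 0.24 (SE 0.06) and 0.40 (SE 0.06) on the log2 scale.

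The other 2 beta isotypes among the members lay below IgG. TUBB4B (ENSG00000188229, chromosome 9), a broadly expressed isotype also found in cilia, was at 328 and 343 CPM with IgG and 318 and 313 CPM with anti-M8nAb at 12 h, and at 291 and 333 against 260 and 251 CPM at 24 h. The log2 fold changes were -0.09 (SE 0.05) and -0.29 (SE 0.05), and the groups did not overlap. TUBB3 (ENSG00000258947, chromosome 16), the isotype used as a marker of neurons, was at 17.1 and 18 CPM with IgG and 13.3 and 14.3 CPM with anti-M8nAb at 12 h. At 24 h it was at 14.4 and 16.7 CPM with IgG and 11.5 and 10.9 CPM with anti-M8nAb. The log2 fold changes of TUBB3, on the part of the gene that was counted, were -0.35 (SE 0.12) and -0.48 (SE 0.13), the second within its SE of the -0.45 of STMN3. The members thus include neuronal isotypes in both directions, TUBB2B and TUBA1A higher and TUBB3 and STMN3 lower.

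**Figure D2:**
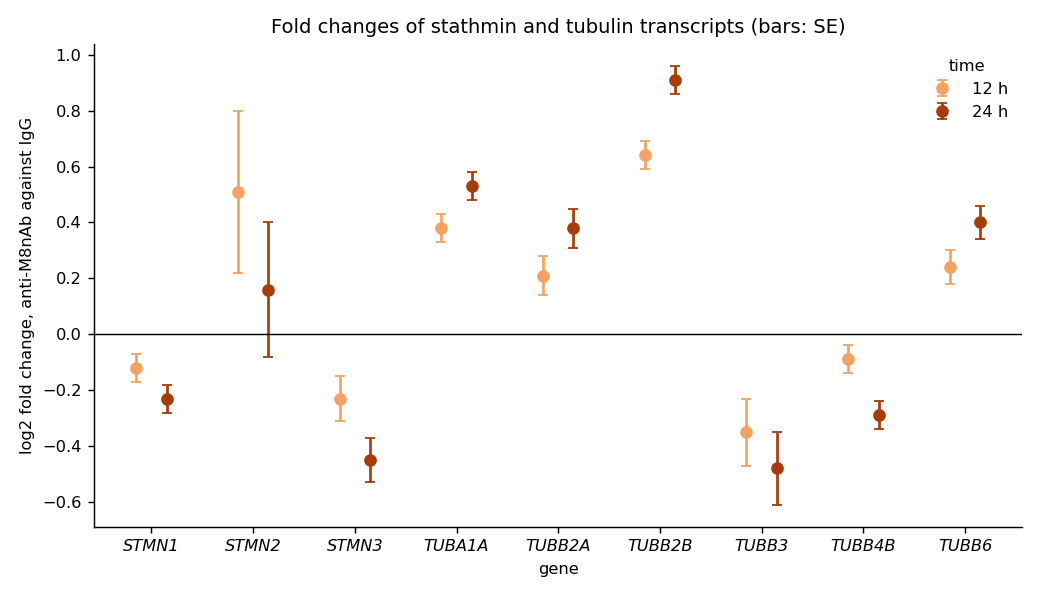
Log2 fold change of anti-M8nAb against IgG (y axis) for 9 stathmin and tubulin transcripts (x axis) at 12 h (light points) and 24 h (dark points). The bars are standard errors derived from the F statistics of the edgeR fit. STMN4 is left out because its IgG libraries were at or near 0 counts; TUBB2B was highest, at 0.64 and 0.91, and TUBB3, at -0.35 and -0.48, and STMN3, at -0.23 and -0.45, were lowest.

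Counted together, 5 members were higher with anti-M8nAb at 12 h at an adjusted p under 0.05 (STMN4, TUBA1A, TUBB2A, TUBB2B and TUBB6), where 15.8% of all genes tested were. At 12 h 2 were lower (STMN3 and TUBB3), where 16.4% of all genes were, and 3 were neither. At 24 h the same 5 were higher, against 21.2% of all genes, and 4 were lower (STMN1, STMN3, TUBB3 and TUBB4B), against 21.3%. With a further 2-fold threshold, STMN4 stayed as the 1 higher member at each time, where 3.4 and 4.76% of all genes were higher, and 0 members were lower, where 2.97 and 4.84% of all genes were. At an adjusted p under 0.05 with no threshold on the fold, TUBB2B alone differed between the times, with a larger rise at 24 h, against 5.79% of all genes on that side and 6.54% on the other. Library by library, the antibody values of all 10 members lay wholly above (6) or wholly below (4) those of IgG at 12 h, and 9 of 10 did so at 24 h (5 above and 4 below). Of all genes tested, 66.3% were apart in this way at 12 h and 69% at 24 h. The median log2 fold change of the members was 0.22 at 12 h and 0.27 at 24 h, against 0.00 over all genes at both times. Since the members were picked from these contrasts, these counts describe them and test nothing. The 12 h calls of STMN3, TUBB3 and TUBB2A were marginal, lost in 6, 8 and 7 of 16 alternatives. TUBB2A lost its call without either IgG 12 h library or anti-M8nAb 12 h library 1, which left 4 higher members. Leaving out IgG library 1, IgG library 2 or anti-M8nAb library 2 of 12 h left 0 lower members, and leaving out anti-M8nAb library 1 left 1.

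Control cells changed in a few members between 12 and 24 h. This contrast shares the IgG libraries with those on which the members were picked, so its values are given as a description. STMN2 rose from 1.57 and 1.75 to 3.15 and 4.1 CPM (log2 fold change 1.13, SE 0.27, adjusted p = 0.00306, edgeR). TUBB2A rose from 81.5 and 79.7 to 88.3 and 108 CPM (0.28, SE 0.07, adjusted p = 0.00526), and TUBA1A fell from 735 and 739 to 647 and 621 CPM (-0.22, SE 0.05, adjusted p = 0.000994). These 2 rises are set against 7.01% of all genes that rose and the 1 fall against 6.64% that fell. The other 7 members did not pass, with TUBB2B at 0.01 (SE 0.05) on the log2 scale and STMN1 at 0.04 (SE 0.05). Without IgG 24 h library 2 neither rise passed (adjusted p = 0.0735 for STMN2) and 3 members fell. The rise of TUBB2A was also lost without either IgG 12 h library, and the fall of TUBA1A without IgG 12 h library 2.

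Shares of summed FPKM describe how the isotype mix changed. TUBB2B made up 10.2% ± 0.381 of beta tubulin transcripts with IgG and 14.6% ± 0.394 with anti-M8nAb at 12 h, while 24 h gave 10.7% ± 0.0385 and 17.7% ± 0.347 (SD, n = 2 throughout). TUBB4B went the other way, from 19.2% ± 0.173 to 16.5% ± 0.265 and from 18.6% ± 0.979 to 13.4% ± 0.378. By FPKM, TUBB2B therefore stood second among beta isotypes at 24 h with antibody, where TUBB4B stood second with IgG. This order rests on the gene length used. In CPM, TUBB2B was already above TUBB4B with IgG, at 368 and 360 against 328 and 343 at 12 h. At 24 h the IgG values were 356 and 376 against 291 and 333 CPM. TUBB6 had 5.26% ± 0.064 and 5.65% ± 0.222 at 12 h and 6% ± 0.185 and 7% ± 0.146 at 24 h, TUBB2A between 3.16 and 4.9% in all libraries, and TUBB3 at most 0.28%. TUBB, which is no member, kept the largest share, 60.9% ± 0.419 and 59.2% ± 1.12 at 12 h and 59.3% ± 1.56 and 56.7% ± 0.153 at 24 h. The summed beta level was 865 ± 14.6 FPKM with IgG and 909 ± 10.7 with anti-M8nAb at 12 h, while 24 h gave 855 ± 40.1 and 911 ± 1.57, so the mix shifted more than the total. The shares are of sequenced fragments, with reads of TUBB2A and TUBB2B partly interchangeable. Reads of TUBB3 may be left out as described above, so its share may be too low.

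Alpha tubulin showed a shift towards TUBA1A. Its share of the summed alpha FPKM was 24.9% ± 0.0588 with IgG and 29.9% ± 1.26 with anti-M8nAb at 12 h, while 24 h gave 23.3% ± 1 and 30% ± 0.337. TUBA1B, the largest alpha isotype, had 60.4% ± 0.351 and 59% ± 0.745 at 12 h and 61.9% ± 0.924 and 57% ± 0.774 at 24 h, but 72.6% of its canonical transcript lies on exons of other genes, so its own level is uncertain. TUBA1C held 13.3% ± 0.253 and 10.2% ± 0.509 at 12 h and 13.4% ± 0.0519 and 12% ± 0.433 at 24 h.

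**Figure D3:**
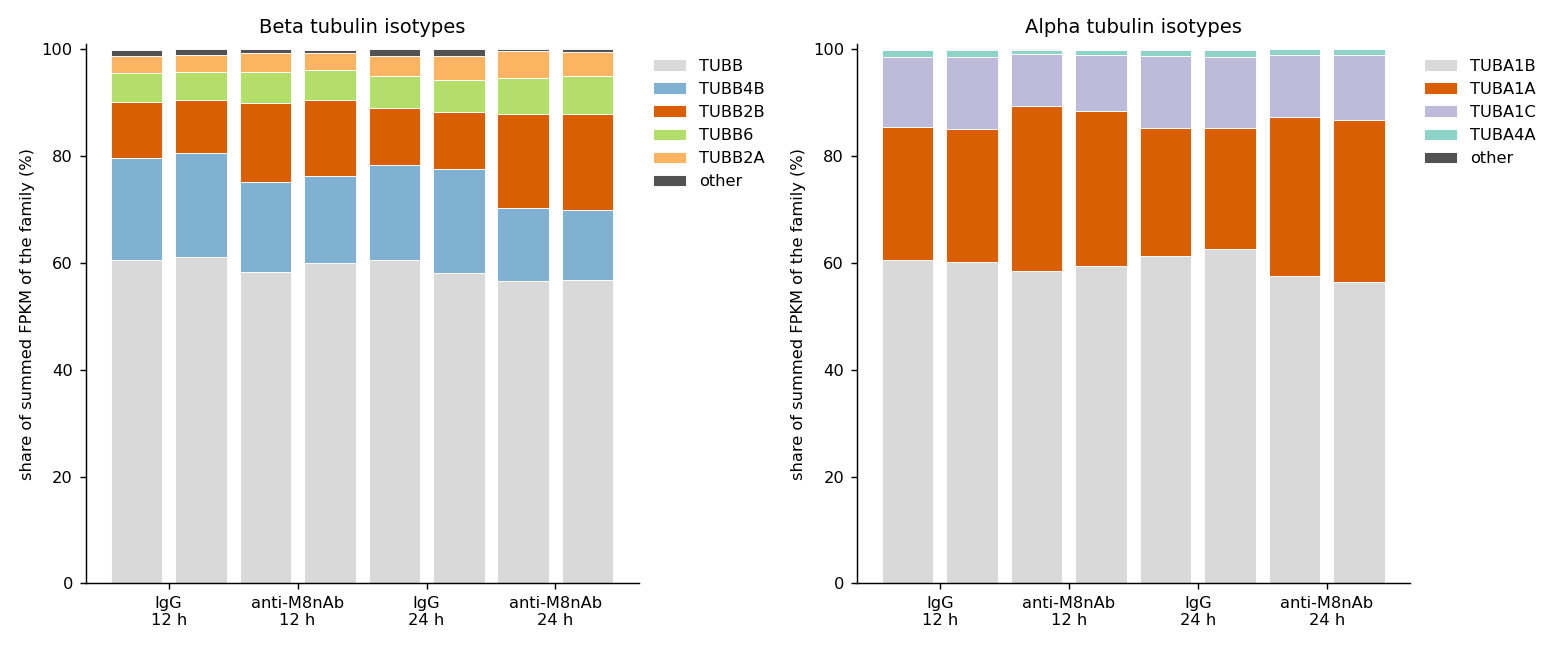
Share of each isotype in the summed FPKM of 9 beta tubulin genes (left) and 9 alpha tubulin genes (right), in percent (y axis), with 1 bar per library in pairs by group (x axis). The orange TUBB2B segment widens from 9.96 to 10.7% of the bar with IgG to 17.5 and 17.9% with anti-M8nAb at 24 h, and the orange TUBA1A segment from 22.6 to 25% with IgG to 29 to 30.8% with antibody.

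Of 16 tubulin genes outside the members, 10 were tested, of which 1 rose and 4 fell at 12 h and 4 rose and 3 fell at 24 h. Counts of this and the following lists are to be read against the shares of all genes, of which 15.8% rose and 16.4% fell at 12 h and 21.2% rose and 21.3% fell at 24 h. TUBB4A, a beta isotype of oligodendrocytes and neurons, was at 16.9 and 15.8 CPM with IgG and 6.48 and 4.77 CPM with anti-M8nAb at 12 h, and at 20 and 22.6 against 5.16 and 5.46 CPM at 24 h. Its log2 fold changes of -1.54 (SE 0.15, adjusted p = 2.53e-11) and -2.00 (SE 0.15, adjusted p = 2.76e-15) were larger in size than those of the members other than STMN4. TUBA4A fell at 12 h by 0.55 on the log2 scale (adjusted p = 1.49e-05) and at 24 h by 0.27 (adjusted p = 0.0223, lost without IgG 24 h library 2 or either anti-M8nAb 24 h library). TUBA1C fell by 0.27 at 12 h (adjusted p = 1.68e-05) and did not pass at 24 h (0.02, adjusted p = 0.81). TUBB did not pass at 12 h (0.09, adjusted p = 0.0717) and rose at 24 h (0.12, adjusted p = 0.0151), and TUBA1B passed at neither time (0.08, adjusted p = 0.12, and 0.05, adjusted p = 0.315). TUBB1, the platelet isotype, was at -0.06 (adjusted p = 0.856) at 12 h and fell at 24 h (-0.97, adjusted p = 0.00014). On the other strand, 17.1% of the TUBB4A exon bases, 20% of TUBA4A, 22.7% of TUBA1C, 13.5% of TUBB and 35.5% of TUBB1 overlap another gene, so their counts may hold its reads. The 12 h rise, in TUBE1, was lost without either IgG 12 h library or without anti-M8nAb 12 h library 2 and became 2 without anti-M8nAb 12 h library 1 or either IgG 24 h library, and the 24 h rises came to 2 without either IgG 24 h library and to 1 without anti-M8nAb 24 h library 2.

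The next list holds enzymes that modify tubulin, most of them at its C-terminal tail. In all, 4 of 21 tested rose and 7 fell at 12 h, and 3 rose and 3 fell at 24 h (all genes, 15.8 and 16.4% at 12 h and 21.2 and 21.3% at 24 h). TTL, the ligase that puts the final tyrosine back on alpha tubulin, fell at both times (log2 fold change -0.62, adjusted p = 5.17e-08, and -0.31, adjusted p = 0.00123). VASH2, a carboxypeptidase that removes it, rose (0.38, adjusted p = 7.29e-08, and 0.30, adjusted p = 6.01e-06), and its partner SVBP was at 0.18 (adjusted p = 0.146) and 0.19 (adjusted p = 0.108). VASH1, in the same list, went the other way at 12 h (-0.38, adjusted p = 0.0129, edgeR) and did not pass at 24 h (-0.16, adjusted p = 0.252). TTLL4, which starts glutamate chains, fell (-0.59, adjusted p = 7.95e-08, and -0.33, adjusted p = 0.000716), and AGTPBP1, which trims them, fell at 12 h (-0.44, adjusted p = 7.84e-06) and not at 24 h (-0.10, adjusted p = 0.286). The rises of the list came to 2 without IgG 12 h library 1 and, at 24 h, to 1 without IgG 24 h library 2. No protein or tubulin modification was measured.

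Proteins that bind the microtubule wall or its ends gave 5 rises and 11 falls among 25 tested at 12 h and 10 rises and 4 falls at 24 h, with a median log2 fold change of -0.12 and 0.17. MAP1B, a microtubule-associated protein of growing axons, rose from 294 and 294 to 426 and 396 CPM at 12 h (0.48 on the log2 scale, adjusted p = 6.55e-10) and from 267 and 252 to 668 and 591 CPM at 24 h (1.28, adjusted p = 4.39e-24). The doublecortin-like kinase DCLK1 rose at both times (0.49, adjusted p = 2.36e-05, and 0.85, adjusted p = 3.97e-11), as did the end-binding protein MAPRE2 (0.30, adjusted p = 0.000326, and 0.49, adjusted p = 3.43e-08). TPX2, a spindle assembly factor, fell at both times (-0.62, adjusted p = 1.35e-12, and -0.45, adjusted p = 3.17e-09), and so did CLASP1, which stabilises plus ends (-0.59, adjusted p = 3.55e-09, and -0.19, adjusted p = 0.0218, the second lost without IgG 24 h library 1 or either anti-M8nAb 24 h library). The response of 11 of the 25 was higher at 24 h than at 12 h by edgeR, against 5.79% of all genes, and of 0 lower, also 0 at an unadjusted p under 0.05 and by DESeq2. Higher here means a more positive log2 fold change, which includes a smaller fall at 24 h, as for CLASP1. The 11 became 2 in both limma fits, 7 with no filter on low counts, and 6, 5, 6 and 7 without IgG 12 h library 1, IgG 12 h library 2, anti-M8nAb 12 h library 2 and anti-M8nAb 24 h library 1. The same list moved in control cells, where 9 of the 25 fell and 2 rose from 12 to 24 h (6.64 and 7.01% of all genes), and the IgG values enter the difference. Those 9 falls became 4, 2 and 2 and the 2 rises 1, 0 and 0 without IgG 12 h library 1, IgG 12 h library 2 and IgG 24 h library 2, and both limma fits gave 0 of either.

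Genes that take microtubules apart, as the stathmins do, gave more falls than rises. Among 14 tested depolymerising kinesins and severing enzymes, 7 fell and 0 rose at 12 h and 5 fell and 2 rose at 24 h. The severing enzyme gene FIGNL2 fell by 1.03 (adjusted p = 8.56e-08) and 0.70 (adjusted p = 3.11e-05) on the log2 scale, and the kinesin KIF18B by 0.25 at 12 h (adjusted p = 0.0101, lost without either IgG 12 h library or anti-M8nAb 12 h library 2) and 0.46 at 24 h (adjusted p = 4.31e-06). The 2 rises came to 0 without IgG 24 h library 2 or anti-M8nAb 24 h library 1 and to 1 without anti-M8nAb 24 h library 2. The count of 0 rises at 12 h was also 0 at an unadjusted p under 0.05 and by DESeq2. On the other strand, 45% of the FIGNL2 exon bases overlap another gene, so the FIGNL2 counts may hold reads of that gene.

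Of 22 tested folding genes, which bring alpha and beta tubulin into the dimer, 3 rose and 1 fell at 12 h and 8 rose and 3 fell at 24 h. The cofactors TBCC and TBCD fell at 24 h (-0.81, adjusted p = 5.17e-08, and -0.52, adjusted p = 1.75e-09), whereas TBCA, which holds free beta tubulin, rose (0.31, adjusted p = 6.7e-05). At 12 h TBCC was at -0.12 (adjusted p = 0.434), TBCD fell (-0.17, adjusted p = 0.0226, lost without any one of the 12 h libraries) and TBCA rose (0.19, adjusted p = 0.0147, lost without IgG 12 h library 1 or anti-M8nAb 12 h library 1). The rises at 12 h numbered 0, 1 and 1 without IgG 12 h library 1, IgG 12 h library 2 and anti-M8nAb 12 h library 1 and 5 without either IgG 24 h library, the fall was lost without IgG 12 h library 2 or either anti-M8nAb 12 h library, and the rises at 24 h numbered 3 without IgG 24 h library 2 and 4 without anti-M8nAb 24 h library 2. Of 20 nucleation genes, which seed new microtubules, 3 rose and 3 fell at 12 h and 4 rose and 6 fell at 24 h. The 12 h counts and the 24 h rises of nucleation genes were close to the shares of all genes. TUBGCP2 rose at both times (0.18, adjusted p = 0.0185, and 0.20, adjusted p = 0.00605, edgeR). TUBGCP4 rose at 12 h (0.24, adjusted p = 0.00345) and did not pass at 24 h (0.14, adjusted p = 0.0813). The calls were lost in 5 and 3 of 16 alternatives for TUBGCP2 and in 4 for TUBGCP4. The augmin subunit HAUS1 fell at both times (-0.42, adjusted p = 2.2e-05, and -0.63, adjusted p = 7.11e-09), as did pericentrin, PCNT (-0.35, adjusted p = 0.000456, and -0.48, adjusted p = 3.25e-06). Their rises at 12 h numbered 0 without IgG 12 h library 1 and 1 without either anti-M8nAb 12 h library, and those at 24 h numbered 2 without either IgG 12 h library, IgG 24 h library 1 or anti-M8nAb 24 h library 1.

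**Figure D4:**
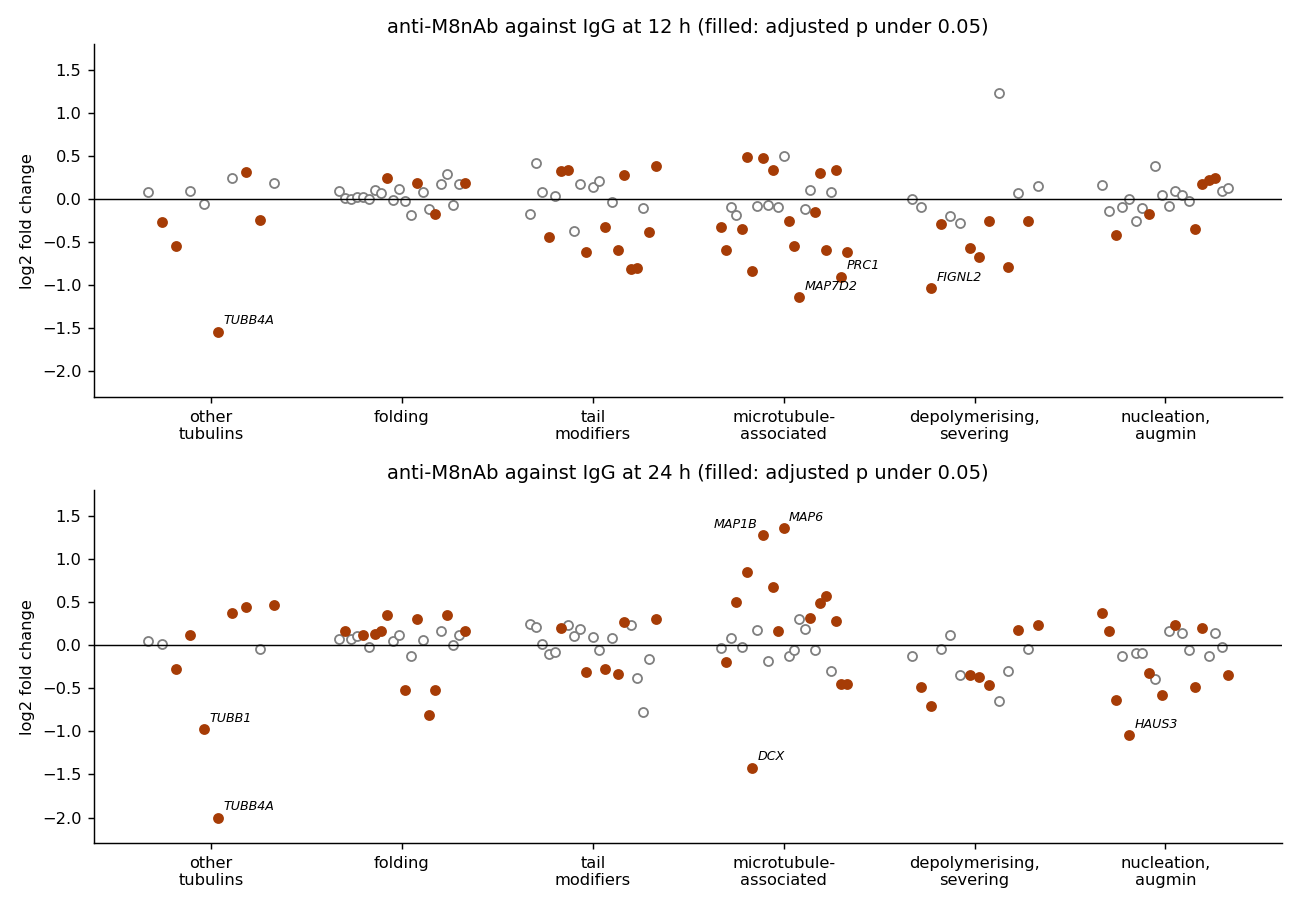
Log2 fold change of anti-M8nAb against IgG (y axis) at 12 h (top) and 24 h (bottom) for each tested gene of 6 lists (x axis); filled points passed an adjusted p under 0.05 and open points did not. Names are given for passing genes that reached 0.9 on the log2 scale in either direction; TUBB4A was lowest, at -1.54 and -2.00.

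Likeness across the 8 libraries was read for STMN4 and TUBB3 as a description. Among 11166 protein-coding genes with a mean of at least 5 CPM, the levels of STX12, CHP1 and MAPRE2 followed STMN4 most closely (Pearson r of log2 CPM 0.995, 0.994 and 0.994). For TUBB3 the closest were DBNL, CDK2AP1 and KDM4B (0.989, 0.988 and 0.985, of 11165). All points share the same 8 libraries, and with treatment and time parting the groups in many genes such values are easily high.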

How the data were processed

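RNA sequencing of BG01 hESCs was analysed in 8 libraries, 2 in each of 4 groups taken from the labels. The authors trimmed reads (Trimmomatic), aligned these with STAR against GRCh38.p14 and removed duplicates with Picard, which can lower the counts of abundant genes such as tubulins, and counted reads per gene with HTSeq; FastQC 0.11.9 is named too in the submitters' notes. Deposited values are raw counts and, separately, FPKM that the authors computed from them. How reads shared by overlapping genes were treated is not given in the sources used here. All 62086 identifiers were paired with GENCODE symbols. In each table there are 4 columns, 8 in all, that match no sample and were not used. Lines with no gene name, 1005 in number, were kept out of library sizes; the last 5 hold 53.2 to 54.1% of all counts and the others 0.192 to 0.21%.

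Genes were filtered by edgeR's filterByExpr (20165 kept), scaled by TMM and modelled in R 4.3.3 by edgeR 4.0.16 with 1 mean per group over all 8 libraries and a common biological coefficient of variation of 5.53%. The quasi-likelihood F test (two-sided) was adjusted by Benjamini-Hochberg over all genes, at an adjusted p under 0.05 with no threshold on the fold. Each SE is the size of the log2 fold change divided by the square root of its F statistic. Replicate spread was 2.28 to 4.5 times that of counting alone by group. Intervals for STMN4 are exact at 95%. The fit was tested on simulated data. Alternatives were DESeq2 1.42.0, its size factors, no filter, a mean of at least 1 CPM, limma 3.58.1 on log2(FPKM + 1) or log2(FPKM + 0.1), a replicate term, each time alone, each library left out and a further 2-fold threshold. The members and lists were chosen with earlier results of these data known, so antibody contrasts of members are given without p-values. For list genes adjusted p-values and counts are given, and under the same limit these are a description of the libraries. Other genes are named from up to 4 with the smallest adjusted p per list and time, and tubulins with a mean of at least 1 FPKM. For STMN4 and TUBB3 the 3 protein-coding genes closest in log2 CPM (prior count 2) are named too. SVBP, VASH1, AGTPBP1 at 24 h, DCX at 24 h and the values of some named genes at their other time were added after their values were seen. Coding ends and overlaps come from GENCODE on GRCh38. Some items are not reported here.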

Additional observations from a re-analysis of the deposited data

Results flagged for a closer look

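For 12 of 48 tested genes among those named or listed as tubulins, the response to anti-M8nAb at 24 h differed from that at 12 h by a test of the difference itself (edgeR, adjusted p over all genes; differences are log2 fold changes at 24 h minus 12 h). Over all genes 5.79% differed on the higher and 6.54% on the lower side, and the 48 include genes named for a small adjusted p at 12 or 24 h, so nothing is read from their share. For TUBB2B the difference was 0.26 (0.64 at 12 h and 0.91 at 24 h), given as a description because the gene was picked on these contrasts; its call was lost without IgG 12 h library 1 and in both limma fits. Among other tubulins, TUBA1C went from -0.27 to 0.02 (difference 0.29, adjusted p = 0.00271, lost without IgG 12 h library 2) and TUBB1 from -0.06 to -0.97 (-0.91, adjusted p = 0.0238, lost in 9 of 15 alternatives). MAP1B went from 0.48 to 1.28 (0.80, adjusted p = 5.58e-11) and kept its call in all 15 alternatives, as did TBCC, which went from -0.12 to -0.81 (-0.69, adjusted p = 0.00149).

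Of the other microtubule-associated proteins, DCLK1 went from 0.49 to 0.85 (0.37, adjusted p = 0.0416), a larger rise at 24 h. CLASP1 went from -0.59 to -0.19 (0.40, adjusted p = 0.00423) and MAP7D1 from -0.54 to -0.05 (0.49, adjusted p = 0.00131), both closer to IgG at 24 h. TBCD differed by -0.34 (adjusted p = 0.00441), HAUS8 by -0.63 (adjusted p = 0.00585), HAUS3 by -1.04 (adjusted p = 0.0123) and AGTPBP1 by 0.34 (adjusted p = 0.0262). On the same strand, 39.9% of the HAUS3 exon bases overlap another gene, so the HAUS3 counts may leave out reads. The call was lost in 11 of 15 alternatives for DCLK1, in 8 for AGTPBP1, in 5 for HAUS3, in 3 for CLASP1 and MAP7D1 and in 2 for TBCD and HAUS8.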

How the results depend on the processing

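Of the members' log2 fold changes recomputed under the alternatives, 563 kept direction and side of the threshold, 37 lost and 13 gained a call and 7 reversed. At 12 h the higher members fell from 5 to 3 with limma on log2(FPKM + 1) or log2(FPKM + 0.1), and the lower from 2 to 1 with either limma fit or DESeq2 and to 0 with no filter on low counts. In control cells over time, rises fell from 2 to 1 with no filter and with either limma fit, and the fall from 1 to 0 with either limma fit. The further 2-fold threshold left 1 higher and 0 lower members at each time, 0 for the difference between times, and 1 rise and 0 falls in control cells. With single libraries left out, the lower members at 12 h ranged from 0 to 2, those differing between times from 0 to 3 higher and 0 to 2 lower, and control rises and falls each from 0 to 3.

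The reversals all came from leaving out 1 library, in values that had not passed. STMN2 at 24 h ranged from -0.03 without IgG 24 h library 1 to 0.36 without library 2. The difference between times for STMN4 was -1.46 without IgG 12 h library 2, -0.12 without IgG 24 h library 2 and 4.84 without IgG 24 h library 1, and its control change ranged from -2.29 without IgG 24 h library 1 to 4.01 without IgG 12 h library 2, all from fits that depend on the prior count. In control cells STMN3 and TUBB4B were at 0.01 and 0.00 without IgG 24 h library 1 and at -0.31 and -0.20 without IgG 24 h library 2, and TUBB2B at 0.06 and -0.03. In both limma fits the difference between times passed for STMN4 and not for TUBB2B. Among microtubule-associated proteins the 11 with a higher response at 24 h became 2 in both limma fits. TUBB3 at 24 h lost its call without IgG 24 h library 2. Shares from CPM in place of FPKM, or with isotypes under a mean of 1 FPKM left out, together moved 9 of 40 values, none in direction.

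Replicate numbers did not pair the libraries: deviations of same-numbered libraries correlated at 0.0379 at 12 h and -0.0966 at 24 h over 12557 genes. With the replicate block, 5 members were higher and 2 lower at 12 h and 5 and 4 at 24 h, as without it.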
